A study of Homo sapiens with 4 samples.

Results

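The 8 genes described here are RRM2B, TP53I3, DDB2, FDXR, MDM2, BAX, SESN1 and TP53INP1, all known targets of the tumour suppressor p53, out of 20037 protein-coding genes of the RefSeq annotation (GRCh38). They had been picked because earlier work on these lists found signal at their ends, so the presence of a summit at a member is a description and supports nothing. In each library the listed summit within 1000 bp of either gene end was taken, and otherwise the interval over the gene with its own summit. CUT&Tag profiles came from 22RV1, an established human prostate cancer cell line, in 4 libraries with 1 library per group. The groups were cells given PD0332991 (palbociclib), an inhibitor of the cell cycle kinases CDK4 and CDK6, the control of that inhibitor, cells given an siRNA against RB, and the control of that siRNA. All were grown in RPMI-1640 with serum, and doses and times are not given in the sources used here. The title of the series concerns the retinoblastoma protein RB, which these kinases phosphorylate, the transcription factor ETS1 and the response of prostate cancer cells to such inhibitors.

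p53 is a transcription factor that is stabilised after DNA damage and other stress and binds paired copies of a short sequence near or inside its target genes. Its targets include genes of DNA repair and nucleotide supply (DDB2, RRM2B), of redox metabolism (FDXR, TP53I3, SESN1), of cell death (BAX, TP53INP1), and MDM2, whose product marks p53 for degradation and so closes a feedback loop. None of the labels names the antibody, and per their protocols the chromatin was fixed and then sonicated. A summit at one of these genes is therefore a place of high signal and is not a measurement of p53 binding.

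Levels are given as fragments at a summit per 1000000 treatment fragments of the library (FPM), recovered from the deposited fold and p. Recovered totals were 1909342 fragments under PD0332991, 2458772 in the inhibitor control, 2423282 after RB siRNA and 3479675 in the siRNA control, so that 1 fragment was worth 0.524, 0.407, 0.413 and 0.287 FPM in that order. With 1 library per group no difference has a replicate check, and every interval given is a 95% interval that covers counting error only. The intervals are wide, with median widths of 542, 184, 701 and 175 kb in the same order, and each lists 1 summit, its highest point. Where that summit lies elsewhere, its level is an upper limit for the gene end, and a lower summit there would not be listed. The lists reach down to a deposited −log10 p of 1.45 under PD0332991, 1.37 in the inhibitor control, 1.40 after RB siRNA and 1.32 in the siRNA control, and the highest deposited −log10 q of any member summit was 1.07, at TP53I3 in the inhibitor control. In the relation solved here, p uses fragments multiplied by a small scale and cut to a whole number. The 110 fragments of RRM2B under PD0332991 thus fell short of 1 and had a −log10 q of 0. The p and q therefore hardly grade the member summits.

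Of the 8 genes, 7 had a summit at an end in at least 1 library, and BAX had none in any. RRM2B and TP53I3 had one in all 4 libraries, DDB2, FDXR and MDM2 in 3, SESN1 in 2 and TP53INP1 in 1. By library, 4 members had one under PD0332991 and 6 in the inhibitor control, 3 after RB siRNA and 7 in the siRNA control. Among all protein-coding genes the shares were 7.73% under PD0332991 and 16.8% in the inhibitor control, 6.63% after RB siRNA and 17.3% in the siRNA control, and since the genes were picked for such summits nothing is read from the difference. Of the 12 cases without a summit at a gene end, 9 were in the treated libraries, whose intervals are wider, and 3 in the controls. In all 12 the interval over the gene had its summit between 31.8 and 1009 kb away, at 3.66 to 42.4 FPM.

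**Figure D1:**
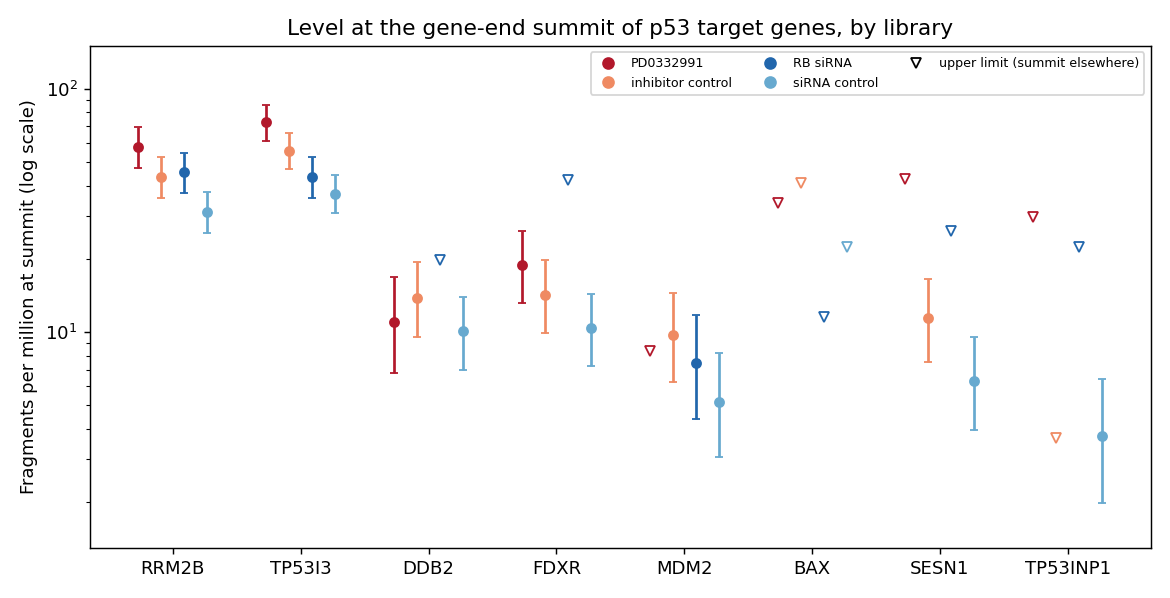
Level at the gene-end summit of each gene (FPM, log scale) in the 4 libraries. Filled points are summits at a gene end with 95% counting intervals, and open triangles are upper limits from intervals whose summit lies elsewhere; RRM2B and TP53I3 stand at 31.0 to 72.8 FPM in all 4 libraries, above every other member summit.

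RRM2B encodes the small subunit of ribonucleotide reductase that p53 induces, and it carried one of the 2 highest summits of the set. The gene lies on chromosome 8 from 102204501 to 102238961. The summit had 110 fragments under PD0332991 (57.6 FPM, 47.3 to 69.4), 107 in the inhibitor control (43.5 FPM, 35.7 to 52.6), 110 after RB siRNA (45.4 FPM, 37.3 to 54.7) and 108 in the siRNA control (31.0 FPM, 25.5 to 37.5). In each of the 4 libraries it stood among the higher gene-end summits, at percentile 95.2, 96.1, 94.6 and 97.1 of them in that order. It lay outside the gene, 183 bp beyond the end with the higher coordinate under PD0332991, 263 bp in the inhibitor control, 326 bp after RB siRNA and 252 bp in the siRNA control. In the inhibitor control the interval around it was 0.248 kb wide, whereas it measured 1267 kb under PD0332991, 2571 kb after RB siRNA and 837 kb in the siRNA control.

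The summit assigned to TP53I3, a gene for a quinone oxidoreductase, does not lie at the start of that gene. TP53I3 is read from the minus strand of chromosome 2, from its start site at 24084834 down to 24077433, and the summits lie beyond its far end, at 24076656 with PD0332991 and its control, 24076705 after RB siRNA and 24076725 in the siRNA control. They are 8109 to 8178 bp from the start site of TP53I3 and 708 to 777 bp outside the gene. They fall between the start sites of SF3B6, which encodes a splicing factor subunit and is read from the minus strand, and FAM228B, read from the plus strand, which are 507 bp apart. The distance to the FAM228B start was 177 bp with PD0332991 and its control, 128 bp after RB siRNA and 108 bp in the siRNA control, and to the SF3B6 start 330, 330, 379 and 399 bp. No library listed a summit within 1000 bp of the TP53I3 start itself. The summit had 139 fragments under PD0332991 (72.8 FPM, 61.2 to 86.0), 137 in the inhibitor control (55.7 FPM, 46.8 to 65.9), 105 after RB siRNA (43.3 FPM, 35.4 to 52.5) and 129 in the siRNA control (37.1 FPM, 31.0 to 44.0). These are levels at a place between the SF3B6 and FAM228B starts.

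All 4 summits fall inside the RefSeq promoter window of FAM228B (GRCh38.p14, chr2:24076583-24076882, plus strand, 250 bases before to 50 after the start), at base 74 from its 5′ end with PD0332991 and its control, base 123 after RB siRNA and base 143 in the siRNA control. It is shown with the neighbouring SF3B6 window (chr2:24076277-24076576, minus strand), which holds none of the summits, because the summits lie between the starts of these 2 genes and not at that of TP53I3. Capitals mark CCGGAA and GGAAGT, core letters of the sites of ETS factors, the family of ETS1 in the title of the series; CCAAT and the p53 half-site were searched too, on both strands, and CCGGAA and GGAAGT may overlap.
FAM228B: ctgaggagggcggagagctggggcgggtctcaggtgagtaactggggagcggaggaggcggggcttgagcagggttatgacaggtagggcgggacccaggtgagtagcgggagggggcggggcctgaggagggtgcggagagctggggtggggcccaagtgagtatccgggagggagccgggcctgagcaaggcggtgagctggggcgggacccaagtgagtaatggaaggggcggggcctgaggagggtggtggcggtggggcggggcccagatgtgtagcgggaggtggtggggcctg
SF3B6: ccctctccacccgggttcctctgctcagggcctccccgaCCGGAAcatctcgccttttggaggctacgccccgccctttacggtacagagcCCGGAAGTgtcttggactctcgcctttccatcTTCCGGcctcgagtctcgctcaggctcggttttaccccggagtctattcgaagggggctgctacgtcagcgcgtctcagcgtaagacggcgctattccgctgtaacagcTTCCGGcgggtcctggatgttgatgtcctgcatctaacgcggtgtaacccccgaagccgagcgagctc

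The FAM228B window is made of similar blocks in a row. Shifted against itself by 59 bases it matched at 44.8% of positions, a value that 2.65% of the 35116 promoter windows reached or passed at their best shift between 15 and 100 bases (median 34.4%). The window is 70.7% G or C, and the other windows were not matched to it in base composition. This measure was chosen after the sequence was seen, and the part of the repeated blocks in the level of the summit was not tested. The FAM228B window held no match to these motifs. The SF3B6 window held CCGGAA 4 times and GGAAGT once. The window of the TP53I3 start, which holds no summit either, had 1 CCGGAA and 1 GGAAGT. At least 1 CCGGAA stood in 17.2% of all windows and at least 4 in 0.316%, and at least 1 GGAAGT in 22.8%. The cut of 4 was taken from the count in the SF3B6 window itself, so the 0.316% is a description only. The summits lay outside the SF3B6 window in all 4 libraries.

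DDB2 encodes the UV damage sensor subunit of nucleotide excision repair. Its summits lay inside the gene on chromosome 11, at 47214843 under PD0332991 and 47214897 in its control, and at 47214903 in the siRNA control, a span of 60 bp. The gene has annotated start sites at 47214454 and 47214974 on the plus strand, and the summits lay 131, 77 and 71 bp upstream of the second one in that order. The level was 11 FPM under PD0332991 (21 fragments, 6.81 to 16.8), 13.8 FPM in the inhibitor control (34 fragments, 9.58 to 19.3) and 10.1 FPM in the siRNA control (35 fragments, 7.01 to 14.0). After RB siRNA the interval over DDB2 had its summit 169 kb beyond the gene, so DDB2 had at most 19.8 FPM there, a limit above the 3 measured values. All 3 measured intervals overlap.

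The promoter window of the second DDB2 start (GRCh38.p14, chr11:47214724-47215023, plus strand) holds the 3 summits, at base 120 under PD0332991, base 174 in the inhibitor control and base 180 in the siRNA control. It is shown because it was the member window with a pair of p53 half-sites, in capitals at bases 256 to 265 and 267 to 276, followed by GGAAGT at bases 281 to 286.
DDB2, second start: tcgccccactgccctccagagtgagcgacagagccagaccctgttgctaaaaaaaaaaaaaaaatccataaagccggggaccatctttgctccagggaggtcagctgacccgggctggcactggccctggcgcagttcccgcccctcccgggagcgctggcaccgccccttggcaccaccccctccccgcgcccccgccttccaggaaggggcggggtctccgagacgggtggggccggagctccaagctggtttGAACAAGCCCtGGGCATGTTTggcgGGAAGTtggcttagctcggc

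The p53 half-site was searched by the usual degenerate consensus on both strands, and 6.63% of all promoter windows held at least 1 exact match. Among the 13 member windows, this DDB2 window held 2, and 1 window each of FDXR and SESN1 held 1. The SESN1 match, at bases 202 to 211, was in the window of the start at 109008988, which holds no member summit. A pair at most 13 bp apart stood in 10 of 35116 windows (0.0285%). The core of the second half-site is CATG, and half-sites with that core stood in 1.57% of windows. The nearer half-site began 136 bp after the summit under PD0332991, 82 bp in the inhibitor control and 76 bp in the siRNA control. These are matches of letters and not measured binding sites.

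FDXR encodes the reductase that passes electrons to mitochondrial ferredoxin and lies on the minus strand of chromosome 17, from 74862497 to 74872994. Its summits were at 74873246 under PD0332991 and 74873215 in its control, and at 74873246 in the siRNA control, 252, 221 and 252 bp upstream of the start site. The fragment numbers were 36, 35 and 36, or 18.9 FPM under PD0332991 (13.2 to 26.1), 14.2 FPM in the inhibitor control (9.92 to 19.8) and 10.3 FPM in the siRNA control (7.25 to 14.3). The intervals of all 3 overlap. After RB siRNA the interval over FDXR had its summit 912 kb away at the end of UNK, so its 42.1 FPM is a limit above all 3 measured values. No other annotated gene had an end within 1000 bp of the FDXR summits.

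The window of that FDXR start (GRCh38.p14, chr17:74872945-74873244, minus strand) contains the summit of the inhibitor control at base 30, and the other pair of summits lies just before its first base. It is shown because a CCGGAA match on the opposite strand, at bases 7 to 12, stands 18 bp from the inhibitor control summit, while its p53 half-site, at bases 240 to 249, is 210 bp away.
FDXR: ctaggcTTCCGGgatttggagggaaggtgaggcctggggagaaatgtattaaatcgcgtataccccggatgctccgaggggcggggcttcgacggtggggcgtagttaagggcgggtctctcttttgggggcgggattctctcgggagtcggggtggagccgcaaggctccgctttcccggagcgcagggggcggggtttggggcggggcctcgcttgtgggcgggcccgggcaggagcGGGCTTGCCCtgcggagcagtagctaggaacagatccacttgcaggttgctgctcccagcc

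MDM2, the ubiquitin ligase that limits p53, was the member whose summit lay at different starts in different libraries. In humans MDM2 has an upstream promoter that works without p53 and a second one in the first intron that p53 drives. The gene lies on the plus strand of chromosome 12 from 68808172 to 68850686, with annotated starts at 68808172 and 68808177 and again at 68809017 and 68809024. The summit was at 68808005 after RB siRNA and at 68808002 in the inhibitor control, 167 and 170 bp upstream of the first start. In the siRNA control it was at 68808880, inside the gene and 137 bp upstream of the intronic start, 875 bp from the RB siRNA summit. The distance was longer than at matched summits: among 503 gene-end pairs matched between RB siRNA and its control within 250 bp, the median was 37 bp and the 90th percentile 149 bp, a range that the matching distance itself limits.

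The MDM2 summits were low. The level was 7.43 FPM after RB siRNA (18 fragments, 4.4 to 11.7), 9.76 FPM in the inhibitor control (24 fragments, 6.25 to 14.5) and 5.17 FPM in the siRNA control (18 fragments, 3.07 to 8.18). Since the siRNA control lists its highest point, the upstream start had at most 5.17 FPM there, and the intronic start had at most 7.43 FPM after RB siRNA and at most 9.76 FPM in the inhibitor control. The counting intervals of the 3 libraries overlap. Under PD0332991 the interval over MDM2 had its summit 888 kb beyond the gene at the end of RAB3IP with 16 fragments, so MDM2 had at most 8.38 FPM, against 9.76 FPM in the inhibitor control. The log2 ratio at that limit is -0.22 (-1.23 to 0.75), whose interval includes 0.

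Both MDM2 windows are shown because each holds the summit in some libraries (GRCh38.p14, chromosome 12, plus strand; upstream start, chr12:68807922-68808221; intronic start, chr12:68808767-68809066). Capitals mark CCAAT, the site of NF-Y, on either strand, which 34.6% of all windows held at least once; each of the MDM2 windows held it at 2 places, which overlap in the upstream window. The summit stood at base 84 of the upstream window after RB siRNA and base 81 in the inhibitor control, and at base 114 of the intronic window in the siRNA control, 1 bp from a CCAAT match. Neither window had an exact p53 half-site, which says only that these letters are not in them.
MDM2, upstream start: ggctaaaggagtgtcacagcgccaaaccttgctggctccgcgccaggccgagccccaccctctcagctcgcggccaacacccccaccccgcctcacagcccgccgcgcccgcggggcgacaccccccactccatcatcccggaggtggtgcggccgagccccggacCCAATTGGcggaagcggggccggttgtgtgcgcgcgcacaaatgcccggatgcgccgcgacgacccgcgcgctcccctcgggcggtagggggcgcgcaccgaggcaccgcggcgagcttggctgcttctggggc
MDM2, intronic start: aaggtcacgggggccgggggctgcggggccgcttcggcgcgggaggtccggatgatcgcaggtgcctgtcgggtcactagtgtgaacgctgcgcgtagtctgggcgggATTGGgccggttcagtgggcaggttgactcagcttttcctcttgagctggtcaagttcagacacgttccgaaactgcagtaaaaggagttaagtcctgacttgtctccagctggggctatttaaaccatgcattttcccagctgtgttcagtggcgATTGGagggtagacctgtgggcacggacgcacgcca

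SESN1, which encodes a sestrin of the response to oxidative and nutrient stress, had a summit at its upstream start in both controls. On chromosome 6 it lay at 109094891 in the inhibitor control, and at 109094913 in that of the siRNA, 45 and 67 bp upstream of the start at 109094846 on the minus strand. The start of CEP57L1, a centrosomal protein gene read from the plus strand, is 317 bp from that of SESN1 and 272 and 250 bp from the summits. The level was 11.4 FPM in the inhibitor control (28 fragments, 7.57 to 16.5) and 6.32 FPM in the siRNA control (22 fragments, 3.96 to 9.57). Under PD0332991 the interval over the start was 6780 kb wide with its summit at the end of ZBTB24 (42.4 FPM), and after RB siRNA it measured 2073 kb (26.0 FPM), so only these limits hold for SESN1 in the treated libraries. The window (GRCh38.p14, chr6:109094797-109095096, minus strand) holds the summits at base 206 in the inhibitor control and base 184 in the siRNA control. It is shown as the one window that holds a member summit at a start site of its own gene without a match to any motif searched. TATAAA, the TATA box, was searched too and stood in 11.5% of all windows and in none of the 13 member windows.
SESN1, upstream start: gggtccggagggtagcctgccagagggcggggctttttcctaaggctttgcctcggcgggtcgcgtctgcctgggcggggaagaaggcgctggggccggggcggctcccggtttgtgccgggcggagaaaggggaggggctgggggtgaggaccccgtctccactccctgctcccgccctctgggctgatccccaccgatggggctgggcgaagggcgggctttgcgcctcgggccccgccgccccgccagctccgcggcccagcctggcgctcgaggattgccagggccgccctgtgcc

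TP53INP1, a gene for a nuclear protein of p53-dependent cell death and autophagy, had a summit in the siRNA control alone, at 94949459 on chromosome 8, 81 bp beyond the end with the higher coordinate. It had 13 fragments (3.74 FPM, 1.99 to 6.39), the lowest member summit of the set. In the inhibitor control the interval over the gene had a summit of 9 fragments 75.5 kb away, so TP53INP1 had at most 3.66 FPM there, against 3.74 FPM in the siRNA control. The treated libraries gave limits of 29.9 FPM under PD0332991 and 22.3 FPM after RB siRNA, well above any measured value of this gene.

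BAX, a BCL2 family member that permeabilises mitochondria, had no summit at either end. The gene lies on chromosome 19 from 48954875 to 48961798. Its interval had a summit of 34.0 FPM under PD0332991, 157 kb beyond the gene at the ends of LIN7B, PPFIA3 and C19orf73. In the inhibitor control it had 41.1 FPM at the end of SLC6A16, 378 kb beyond. After RB siRNA the summit was 31.8 kb beyond BAX at the ends of GYS1 and RUVBL2 with 11.6 FPM (28 fragments), and in the siRNA control it had 22.4 FPM, 378 kb beyond. The strictest limit on BAX is thus the 11.6 FPM after RB siRNA, and a level like that of MDM2 would not be listed in any of the 4 libraries.

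**Figure D2:**
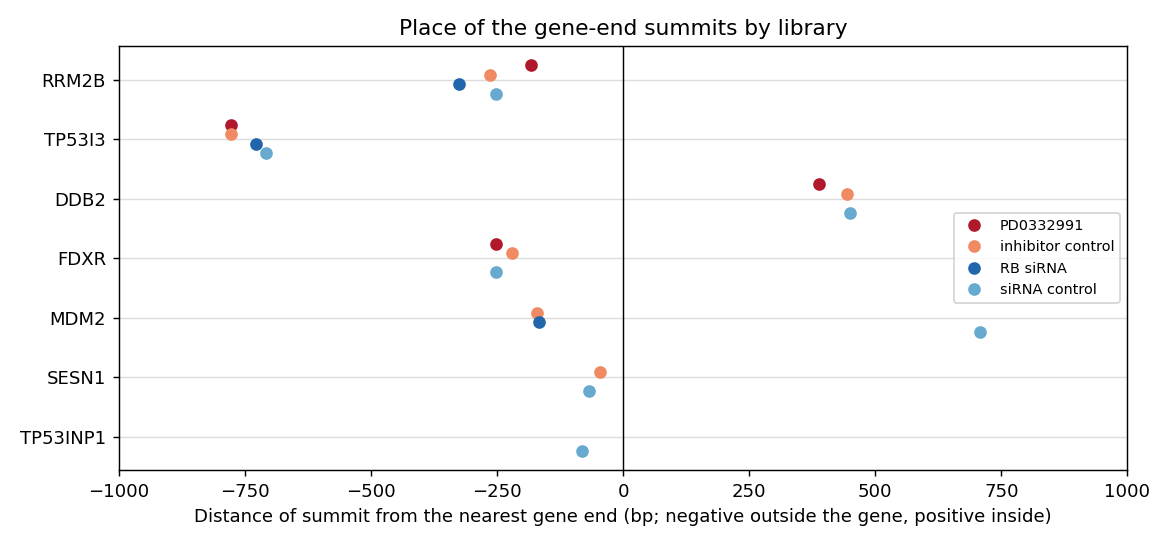
Distance of each gene-end summit from the nearest gene end in bp, with negative values outside the gene and positive values inside, for the 7 genes with such a summit in the 4 libraries. The points of a gene lie within 143 bp of each other except at MDM2, where the siRNA control stands 708 bp inside the gene.

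Apart from MDM2, the summits of a gene lay close together. The span was 143 bp at RRM2B, 69 bp at the TP53I3 end, 60 bp at DDB2, 31 bp at FDXR and 22 bp at SESN1, against 878 bp at MDM2. Among 309 gene-end summits of at least 5 FPM matched in all 4 libraries the median span was 95 bp, with quartiles of 48 and 164 bp, so the spans at RRM2B and the TP53I3 end lay within these quartiles. At DDB2, FDXR, MDM2 and SESN1, 11 of 11 summits were upstream of the nearest start site of their own gene, 45 to 252 bp away with a median of 137 bp. Over all summits within 1000 bp of a protein-coding start site, 69.1% were upstream under PD0332991 (n = 1173), 67.5% in the inhibitor control (n = 2613), 70.5% after RB siRNA (n = 1022) and 66.9% in the siRNA control (n = 2676). The summits of 1 gene in several libraries share their sequence and are not independent, so the 11 stand for 4 genes. RRM2B and TP53INP1 are not in the table of promoter windows used here, and their strand was not read.

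Among the members with a listed gene-end summit, 4 under PD0332991 and 3 after RB siRNA, the order of the levels was alike. TP53I3 and RRM2B came first in each, and neighbouring FDXR and DDB2 followed where they were listed, then SESN1 and MDM2 in both controls, and TP53INP1 in the siRNA control. Between listed neighbours, the step with an interval excluding 1 was the one below this leading pair. RRM2B had 3.06 times the fragments of FDXR under PD0332991 (2.08 to 4.58), 3.06 times in the inhibitor control (2.07 to 4.62) and 3 times in the siRNA control (2.04 to 4.51). After RB siRNA the TP53I3 end had 5.83 times those of MDM2 (3.52 to 10.2). That step passes over FDXR, SESN1, TP53INP1, DDB2 and BAX, whose limits there were 42.1, 26.0, 22.3, 19.8 and 11.6 FPM. Under PD0332991 the limits of SESN1 (42.4 FPM), BAX (34.0 FPM) and TP53INP1 (29.9 FPM) stood above FDXR. The places of these genes in the order are not known there. Every other pair of neighbours in the order had an interval that included 1. These ratios within a library need no scaling between libraries. RRM2B to TP53I3 was 0.79 under PD0332991 (0.61 to 1.02) and 0.78 in the inhibitor control (0.60 to 1.01), and 1.05 after RB siRNA (0.79 to 1.38) and 0.84 in the siRNA control (0.64 to 1.09). FDXR to DDB2 was 1.71 under PD0332991 (0.97 to 3.09), 1.03 in the inhibitor control (0.62 to 1.70) and 1.03 in the siRNA control (0.63 to 1.69). For each of these pairs of genes the intervals of all libraries overlap.

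Over the inhibitor control, PD0332991 gave log2 ratios of 0.40 at RRM2B (0.01 to 0.80), 0.39 at the TP53I3 end (0.03 to 0.74), 0.41 at FDXR (-0.31 to 1.12) and -0.33 at DDB2 (-1.19 to 0.50). Fragment numbers were 110 against 107, 139 against 137, 36 against 35 and 21 against 34 in that order. The size of the first 3 ratios thus comes mainly from the recovered totals. Over the 887 shared summits of at least 5 FPM the median log2 ratio was 0.20, and the 10th and 90th percentiles at gene ends were -0.29 and 0.83. The intervals of 4 of 4 shared members included this median, and 0 of 4 stood 2-fold or more from it; over all shared summits 16.8% had an interval that excluded it and 6.88% stood 2-fold or more away. DDB2 was the farthest of the 4, 0.53 below the median on the log2 scale and at percentile 11.5 of the shared summits, and the other members stood at percentiles 67.3 to 68.5.

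After RB siRNA 2 members had a matched summit. The log2 ratio of RB siRNA over the siRNA control was 0.55 at RRM2B (0.15 to 0.95), with 45.4 against 31.0 FPM, and 0.23 at the TP53I3 end (-0.16 to 0.61), with 43.3 against 37.1 FPM. The fragment numbers were 110 against 108 at RRM2B and 105 against 129 at the TP53I3 end, so these ratios rest on the recovered totals. The median over 749 shared summits was 0.45, and the intervals of both members included it. Over all shared summits 13.6% had an interval that excluded the median and 2.67% stood 2-fold or more from it, against 0 of 2 members by either measure. MDM2 had 7.43 against 5.17 FPM, but at places 875 bp apart that were not matched. For DDB2, FDXR, SESN1 and TP53INP1 only limits exist, and each limit after RB siRNA is above the siRNA control value.

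The inhibitor control was above the siRNA control at 5 of 5 shared members, as it was at 84.8% of all 1191 shared summits, with log2 ratios of 0.49 at RRM2B (0.09 to 0.89), 0.59 at the TP53I3 end (0.23 to 0.95), 0.46 at DDB2 (-0.27 to 1.18), 0.46 at FDXR (-0.25 to 1.17) and 0.85 at SESN1 (-0.01 to 1.72). Fragment numbers were 107 against 108 at RRM2B, 34 against 35 at DDB2 and 35 against 36 at FDXR. The direction at these genes comes from the recovered totals, which rest on assumptions. The median of the shared summits was 0.59, and the intervals of all 5 members included it, against 20.4% of shared summits that excluded it and 6.55% that stood 2-fold or more away. The inhibitor control enters this comparison and that with PD0332991, and the siRNA control enters this one and that with RB siRNA, so the 3 sets of ratios are not independent.

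**Figure D3:**
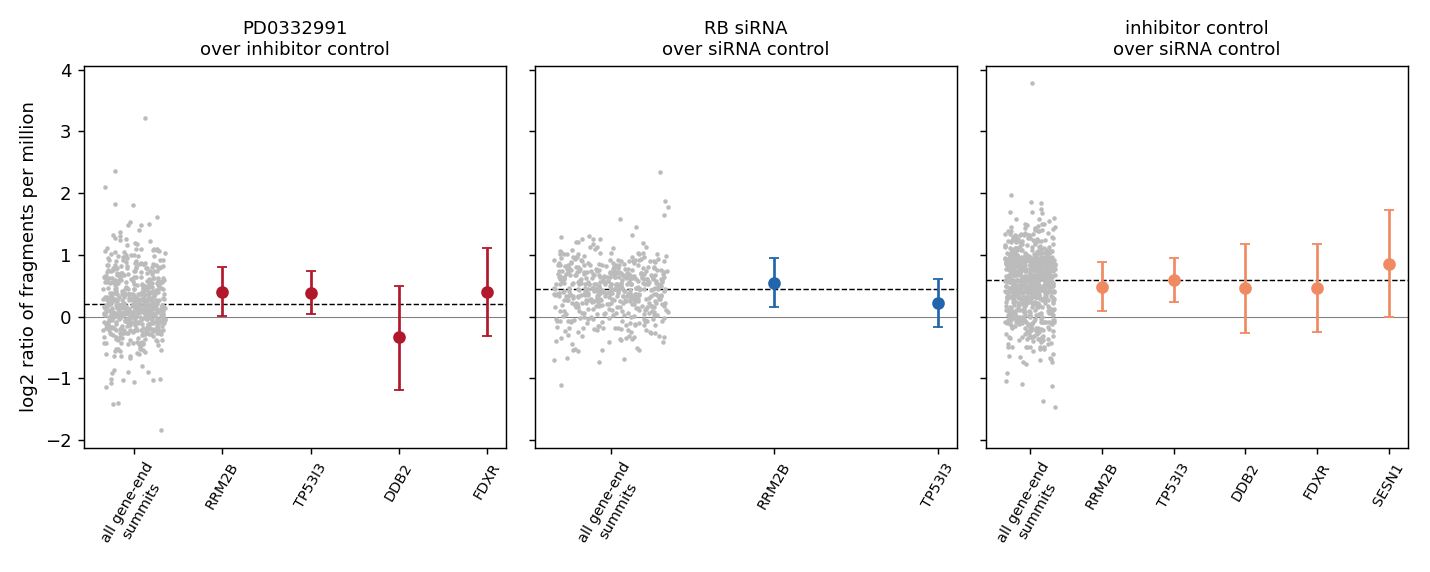
Log2 ratio of FPM at matched summits for PD0332991 over its control, RB siRNA over its control, and the inhibitor control over the siRNA control. Grey points are all shared gene-end summits of at least 5 FPM, coloured points are the members with 95% counting intervals, and the dashed line is the median shift (0.20, 0.45 and 0.59), which every member interval includes.

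Among 22 other p53 targets, a list drawn up with earlier results of these data known, 11 had a gene-end summit in at least 1 library. Over all protein-coding genes, 7.73% had one under PD0332991 and 16.8% in its control, 6.63% after RB siRNA and 17.3% in the siRNA control. Among the 22 targets the counts were 3 under PD0332991 and 10 in its control, 4 after RB siRNA and 8 in the siRNA control. Of these, 2, 2, 2 and 3 reached 5 FPM in the same order. The median level of those listed was 6.28 FPM under PD0332991 and 3.25 FPM in the inhibitor control, and 5.78 FPM after RB siRNA and 3.74 FPM in the siRNA control, against 8.38, 4.88, 7.43 and 3.74 FPM over all gene-end summits in the same order. The median of these 22 was at or below that of all gene-end summits in each library. Since the p53 targets picked for such summits had been set apart as members, nothing is read from this. PPM1D, the phosphatase that dampens p53, had a summit in all 4 libraries, with 14.1 FPM under PD0332991, 13.8 FPM in the inhibitor control, 13.2 FPM after RB siRNA and 10.6 FPM in the siRNA control, at 10 to 74 bp from its start. PMAIP1, a BH3-only death gene also called NOXA, had a summit in all 4 libraries at 2.62, 3.66, 4.54 and 4.02 FPM in that order.

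The remaining 9 genes with a summit were seen in 1 to 3 libraries. TIGAR, a regulator of glycolysis, had 6.28 FPM under PD0332991 (12 fragments), 2.85 FPM in the inhibitor control (7 fragments) and 1.44 FPM in the siRNA control (5 fragments). GADD45A, of growth arrest, had 3.25 FPM in the inhibitor control and 7.02 FPM after RB siRNA. The death receptor gene TNFRSF10B had 2.03 FPM in the inhibitor control at its upper end, while after RB siRNA (4.13 FPM) and in the siRNA control (3.45 FPM) the summit lay at its lower end, near which RHOBTB2 ends too. BTG2, an antiproliferative gene that shares its end with BTG2-DT, had 4.88 FPM in the inhibitor control and 5.17 FPM in the siRNA control. TRIAP1, which shares its end with GATC, had 8.13 FPM in the inhibitor control, and the repair gene XPC, which shares its end with LSM3, had 6.32 FPM in the siRNA control. The listed gene-end summits of SPATA18, EDA2R and FBXO22 had 3 to 8 fragments.

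For the other 11 targets no library listed a gene-end summit, among them CDKN1A, the cell cycle inhibitor p21 that is the best known p53 target. The interval over CDKN1A had its summit inside the gene after RB siRNA, 3872 bp from the end with the lower coordinate (12.4 FPM, 30 fragments), and 3871 bp from it in the inhibitor control (6.51 FPM, 16 fragments). These summits lay 1621 and 1620 bp downstream of the nearest annotated CDKN1A start, in that order. In the other pair of libraries the summit lay at the end of PIM1, 482638 bp away under PD0332991 and 482723 bp in the siRNA control. Just inside the 1000 bp limit stood the TP53I3 end at 708 to 777 bp, MDM2 at 708 bp and SPATA18 at 725 bp in the siRNA control, and TNFRSF10B at 794 bp after RB siRNA. Just outside it was PLK3, a stress kinase gene, with a summit at 1426 bp and 7.73 FPM in the inhibitor control, at the end of DYNLT4.

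**Figure D4:**
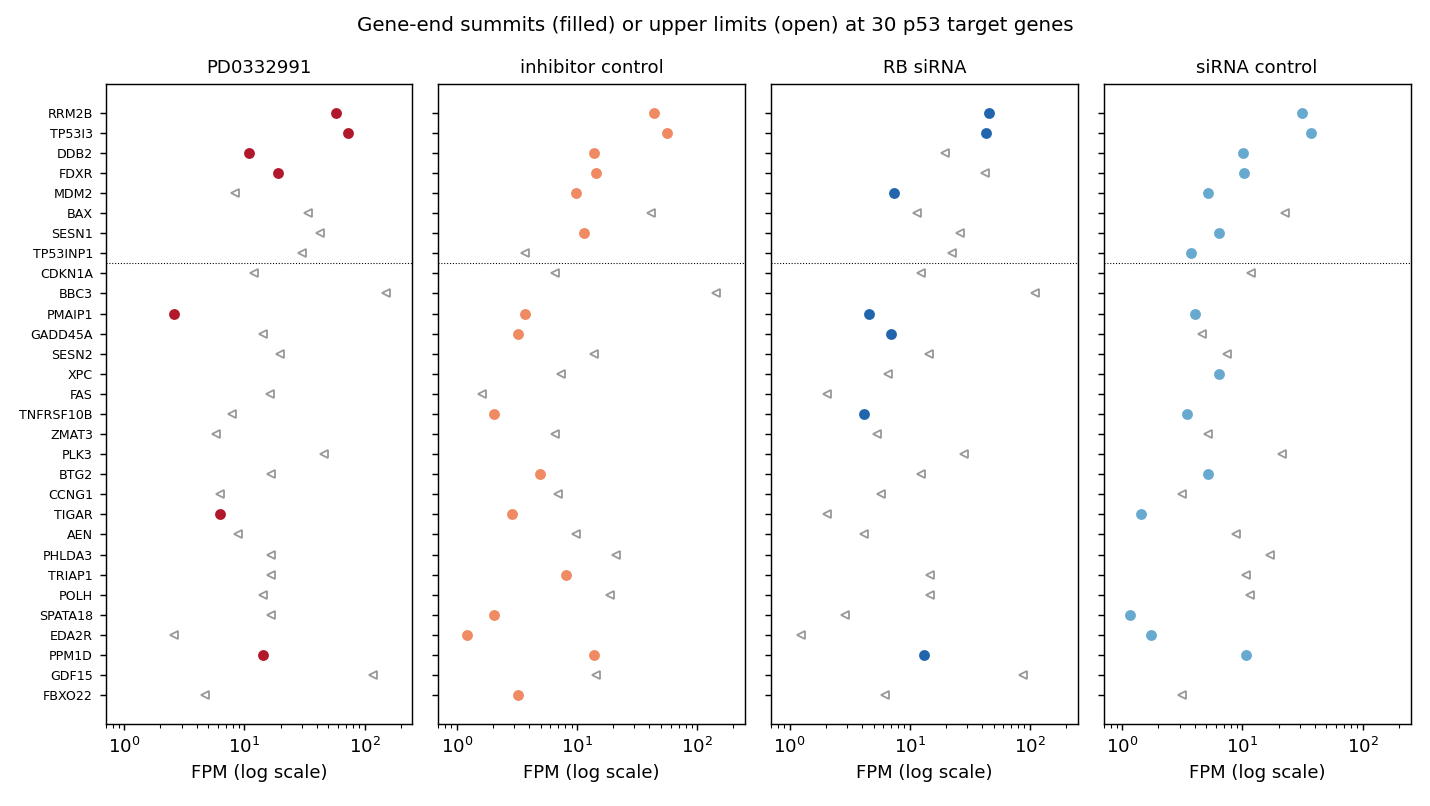
Level at the gene-end summit (FPM, log scale) of the 8 members, above the dotted line, and 22 other p53 targets in the 4 libraries. Filled points are gene-end summits and open triangles are upper limits from intervals whose summit lies elsewhere; RRM2B and TP53I3 hold the highest filled points in every library, and PPM1D stands between 10.6 and 14.1 FPM. The 6 pairs of a gene and a library without a point, all below the dotted line, have neither a gene-end summit nor an interval that covers the whole gene.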

How the data were processed

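CUT&Tag was measured in 4 libraries of 22RV1 cells, 1 per group. Tools named in the submitters' processing notes are bcl2fastq 2.17, Trimmomatic 0.33, Bowtie2 (version given as 2) and MACS2 2.1.0, with hg38 and no settings. The deposited lists hold 1 library each, and in the deposited score column 10 times the −log10 p is cut to a whole number. The fold column is a ratio of treatment over background by the authors. The deposited −log10 p is given with a −log10 q for each summit.

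The fold and p were solved for background and fragments with a pseudocount of 1. At the genome-wide background 100% of the solved numbers were whole within 0.05. Totals assume a window of 10000 bp, a genome of 2.7 Gb and that both ends of a background fragment count, so FPM carry a common unknown factor, and ratios depend on the fragment length found for each library. Summits were matched as mutual nearest within 250 bp, on chromosomes 1 to 22, X and Y. Log2 ratios have exact conditional 95% intervals, and a level has an exact Poisson interval. Such intervals compare 2 libraries, not conditions. The scripts were run on simulated lists made with the same relation and the fitted values. Such lists cannot check the assumptions behind the totals. Sequences and start sites came from RefSeq promoter windows (GRCh38.p14, 300 bases), which matched 6 of the 8 members by symbol, and gene ends from RefSeq on GRCh38. The named genes are the 8 members, genes sharing their ends, listed p53 targets with a gene-end summit, and genes at the summit of an interval over a member; CDKN1A, PLK3, PIM1 and DYNLT4 were added after their values were seen. Not every gene that shares a member end is reported here. The members and lists were chosen with earlier results of these data known. Python 3.11.15, pandas 2.3.3, numpy 2.4.6, scipy 1.17.1 and matplotlib 3.10.9 were used.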

Additional observations from a re-analysis of the deposited data

How the results depend on the processing

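The members' intervals included the median shift with matching within 100 or 1000 bp, with a median over summits of at least 20 FPM or at gene ends, and with all contigs. Scaling by mean genome coverage was added after seeing the data. It raises the median shift to 0.26 for PD0332991 and lowers it to 0.22 for RB siRNA and 0.46 between the controls. It moves members and median alike and so cannot test this. Where matching within 1000 bp takes in MDM2, the interval of MDM2 included the median shift too. For PD0332991 the ratio of the authors' folds was negative where that of FPM was positive at RRM2B (-0.58), the TP53I3 end (-0.78) and FDXR (-0.33). The same held for RB siRNA at RRM2B (-0.66) and the TP53I3 end (-0.81). At the TP53I3 end 139 fragments had a deposited fold of 1.70 under PD0332991 and 137 fragments 2.92 in the inhibitor control. In the relation solved for fragments, each fragment counts 0.00502 under PD0332991 and 0.0141 in the inhibitor control before the pseudocount of 1 is added. A ratio of folds is thus not a ratio of FPM. This scale is the number of background fragment ends over the recovered total of treatment fragments. Background ends numbered 9592 under PD0332991, with a total of 1909342, and 34562 in the inhibitor control, with a total of 2458772. The lower scale under PD0332991 thus goes with its fewer background ends. Why the background ends differ in number was not tested. Relative to the median shift 4 of 5 members turned negative between the controls (RRM2B -0.10, the TP53I3 end -0.000658, DDB2 -0.13, FDXR -0.13), as did the TP53I3 end for RB siRNA (-0.22). At a −log10 q of at least 2, 0 members and 0 genes of the p53 list were left in each of the 4 libraries, where 0.376 to 2.58% of all protein-coding genes with a gene-end summit were left. In the treated libraries this cut cannot grade the list. The p counts scaled fragments cut to a whole number, and no gene-end summit of the list reached 1 there. The highest folds of the list at gene ends were 1.70 under PD0332991 and 1.35 after RB siRNA. At 5 FPM or more the list of 30 kept 6 of 7 genes under PD0332991 and 8 of 16 in its control, 5 of 7 after RB siRNA and 9 of 15 in the siRNA control, against 70.2, 52.3, 66.6 and 40.4% of all such genes. No paired analysis was possible because each group held 1 library. Depth limits the low members most: DDB2, FDXR, MDM2, SESN1 and TP53INP1 rest on 13 to 36 fragments.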
